A study of Mus musculus with 6 samples.

Results

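The genes described here are 10 hypoxia response genes that lie outside glycolysis, measured in the liver of male mouse pups with and without an activated human SRY transgene. They were chosen by name: every probe of the liver table whose symbol is Hif1a, Egln1, Egln3, Vegfa, Adm, Pdk1, Bnip3, P4ha1, Ero1l or Ndrg1 was taken. These symbols held 15 of the 25697 probes, and 10 of the 15 probes, from 7 of the 10 genes, passed the filter on dim probes (a detection p-value, the share of negative control beads at least as bright, under 0.01 on at least 3 of the 6 arrays) that left 10734 probes for testing.

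Liver RNA of 3 hSRY-OFF and 3 hSRY-ON pups, all male, of strain FVB (FVB/N in the study's methods) and at postnatal day 6, was hybridised to single-colour Illumina bead arrays, 1 pup per array. By the study's methods, hSRY-OFF names mice that carry the single-copy Signalox-hSRY transgene at the H11 locus without Cre recombination, so that the CAG promoter drives DsRed2. In hSRY-ON pups Cre recombinase from the egg of a Ddx4-Cre mother had removed DsRed2 at the single-cell stage, and the same CAG promoter, active in nearly all cell types, drove FLAG-tagged human SRY together with EGFP; hSRY-ON mice were chosen that lacked the Ddx4-Cre transgene itself. The responder line is 1 integration, EGFP (and DsRed2, under the methods' definition) differs between the groups along with SRY, and the array holds no probe for the transgene. The study also names littermates with the Ddx4-Cre transgene only, or with no transgene, as its controls, and the labels say only hSRY-OFF. If hSRY-OFF stands for such littermates, the controls carry no Signalox-hSRY transgene and no DsRed2. The sources used here do not settle which, nor whether the array pups were littermates. The study reports that hSRY-ON pups hardly suckled, lacked milk in the stomach and grew slowly. It also reports fatty liver and impaired lung development in them, and that all died young. The part of feeding and illness in the results below was not tested.

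Cells sense oxygen through the hypoxia-inducible factors (HIFs). Prolyl hydroxylases of the Egln family use oxygen to mark HIF alpha subunits such as Hif1a for destruction through the Vhl ubiquitin ligase, so that the amount of Hif1a protein is set mainly by its breakdown and not by its mRNA. When oxygen is scarce, the stabilised subunit pairs with Arnt, binds a short DNA motif and raises the transcription of genes for blood vessel growth, for a shift away from mitochondrial respiration, for collagen maturation and for feedback on the pathway itself. In the liver, where oxygen falls along each lobule from the portal side to the central vein, HIFs are also known for their effects on lipid handling.

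The DNA just upstream of the annotated start sites of these genes is shown first, because HIFs are known to act on their targets through a short motif there or further away. The HIF motif is written here as ACGTG or GCGTG and was searched on both strands in the 250 bases before each annotated start site. The sequences are RefSeq's for GRCm38.p6, each read 5′ to 3′ on the strand of its gene. Capitals mark a motif match, and a match on the opposite strand appears as CACGT or CACGC. Shown are the windows of the genes whose probes rose (Egln1, Egln3, Vegfa and Pdk1) and of a pair of collagen prolyl hydroxylases, P4ha1 and its relative P4ha2, of which P4ha2 rose and P4ha1 had no call. They lie at chr8:124949255-124949504 (Egln1, minus strand), chr12:54203875-54204124 (Egln3, minus), chr17:46032378-46032627 and chr17:46025164-46025413 (Vegfa, windows 1 and 2, minus), chr2:71872974-71873223 (Pdk1, window 1, plus), chr10:59323046-59323295 (P4ha1, plus) and chr11:54100674-54100923 (P4ha2, plus).
Egln1: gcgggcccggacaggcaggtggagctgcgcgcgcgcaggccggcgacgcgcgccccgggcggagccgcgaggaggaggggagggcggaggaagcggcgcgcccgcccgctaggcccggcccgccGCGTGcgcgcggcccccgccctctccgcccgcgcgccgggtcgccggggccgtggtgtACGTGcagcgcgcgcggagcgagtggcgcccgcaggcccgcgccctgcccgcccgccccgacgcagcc
Egln3: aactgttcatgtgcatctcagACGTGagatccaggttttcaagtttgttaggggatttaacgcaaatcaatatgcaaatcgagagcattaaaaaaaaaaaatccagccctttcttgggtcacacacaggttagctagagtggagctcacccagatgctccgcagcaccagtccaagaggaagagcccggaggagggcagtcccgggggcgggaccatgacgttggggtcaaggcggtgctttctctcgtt
Vegfa window 1: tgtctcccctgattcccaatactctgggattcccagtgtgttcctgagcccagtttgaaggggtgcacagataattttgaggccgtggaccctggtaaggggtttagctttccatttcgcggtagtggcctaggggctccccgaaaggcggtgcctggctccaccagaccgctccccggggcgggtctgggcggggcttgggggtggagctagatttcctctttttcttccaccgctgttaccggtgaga
Vegfa window 2: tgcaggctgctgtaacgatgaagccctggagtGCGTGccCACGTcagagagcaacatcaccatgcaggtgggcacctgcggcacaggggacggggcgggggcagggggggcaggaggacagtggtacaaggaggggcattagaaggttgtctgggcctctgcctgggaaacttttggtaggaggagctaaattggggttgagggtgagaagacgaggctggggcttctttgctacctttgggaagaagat
Pdk1 window 1: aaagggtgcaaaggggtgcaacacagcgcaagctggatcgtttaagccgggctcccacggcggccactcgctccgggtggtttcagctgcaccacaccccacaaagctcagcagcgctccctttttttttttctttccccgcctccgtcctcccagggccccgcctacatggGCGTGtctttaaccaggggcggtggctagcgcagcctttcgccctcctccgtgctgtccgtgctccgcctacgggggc
P4ha1: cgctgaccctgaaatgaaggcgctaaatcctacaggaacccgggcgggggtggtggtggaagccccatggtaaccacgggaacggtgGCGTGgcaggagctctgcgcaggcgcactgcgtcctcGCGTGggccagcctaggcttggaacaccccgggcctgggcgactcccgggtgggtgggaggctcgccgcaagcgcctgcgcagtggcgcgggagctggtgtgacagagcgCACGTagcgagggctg
P4ha2: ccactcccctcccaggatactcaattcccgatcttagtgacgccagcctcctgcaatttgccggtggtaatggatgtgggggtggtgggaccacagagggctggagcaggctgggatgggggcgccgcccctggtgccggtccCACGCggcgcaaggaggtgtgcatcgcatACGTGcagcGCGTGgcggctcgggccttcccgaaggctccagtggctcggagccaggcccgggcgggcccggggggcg

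The 10 genes differed in the number and place of these matches. Egln1 held a GCGTG at positions -126 to -122 and an ACGTG at -68 to -64, counted from its start site. In Egln3 a single ACGTG stood at -229 to -225, and in Pdk1 window 1 a single GCGTG stood at -78 to -74. Vegfa window 1 held no match. Window 2, which precedes an internal start site downstream of window 1 and so lies inside the gene, held a match to each form. P4ha1 and P4ha2 held 3 matches each. The P4ha1 probe was near background, detected on 2 hSRY-OFF arrays and 1 hSRY-ON array, so its missing call does not show that P4ha1 stayed level. Across the member genes, 9 of the 10 had at least 1 window in the RefSeq table (Ndrg1 had none), and all 9 held a match in at least 1 window. Vegfa did so only in window 2, inside the gene. Of their 11 windows 9 held a match and 7 held 2 or more, against 38.6% and 16.7% of all 32851 windows; the palindrome CACGTG, in Hif1a and Bnip3, counts once on each strand. The member windows were also richer in G and C, with a median of 64.0% (38.4 to 86.0%) against 52.4% over all windows. Bnip3, Adm and Ero1l, whose probes did not pass the detection limit on any array, held matches as well. A match describes these letters and does not show that a factor binds there.

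**Figure D1:**
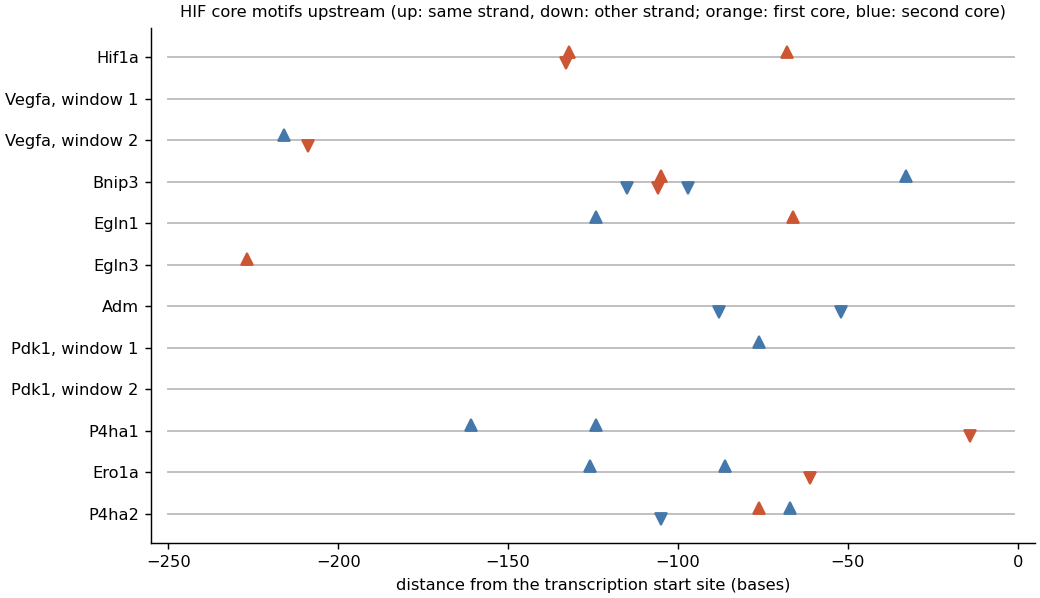
Position of HIF core motif matches in the 250 bases before each annotated start site of the member genes and of P4ha2, in bases from that start site. Triangles pointing up are matches on the strand of the gene and those pointing down on the other strand, orange for the ACGTG form and blue for the GCGTG form; the lines without a triangle are Vegfa window 1 and Pdk1 window 2, and Ero1l is drawn under its current symbol Ero1a.

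Of the 10 tested member probes, 8 were higher in hSRY-ON liver and 0 were lower (limma, adjusted p under 0.05), while 15.8% of all 10734 tested probes were higher and 17.2% lower (33.1% in either direction). Of the 10 tested probes 5 were higher by at least 2-fold as well as past the threshold, as were 5.2% of all tested probes. That count depends on the background correction. Without it Pdk1 (log2 difference 0.84) and Vegfa ILMN_2484527 (0.79) were under 2-fold. Ndrg1 (1.78), Egln3 ILMN_2605819 (1.13) and Vegfa ILMN_3121255 (1.01) stayed above. The 8 probes belonged to 5 genes, Egln1, Egln3, Vegfa, Pdk1 and Ndrg1. Of the 8, Egln1 ILMN_2617086 passed the filter only because of the hSRY-ON arrays, where it is high. Among probes detected on all 6 arrays, 7 of 8 member probes were higher (16.3% of all probes in that fit). Hif1a and P4ha1 had a tested probe each that passed in neither direction, and Adm, Bnip3 and Ero1l were below detection on every array. The median difference of the 10 probes was 0.98 on the log2 scale, against 0.02 over all tested probes, and the groups did not overlap for 8 of them, higher in hSRY-ON each time, as for 25.4% of all tested probes (24.6% were lower without overlap). Egln3 ILMN_2605819, Ndrg1 and Vegfa ILMN_3121255 passed under every alternative tried. The count of 8 fell to 3 without hSRY-OFF replicate 1 (8.33% of all probes higher in that fit), to 5 without hSRY-OFF replicate 3 (12% of all) and to 5 without hSRY-ON replicate 1 (10.9% of all).

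**Figure D2:**
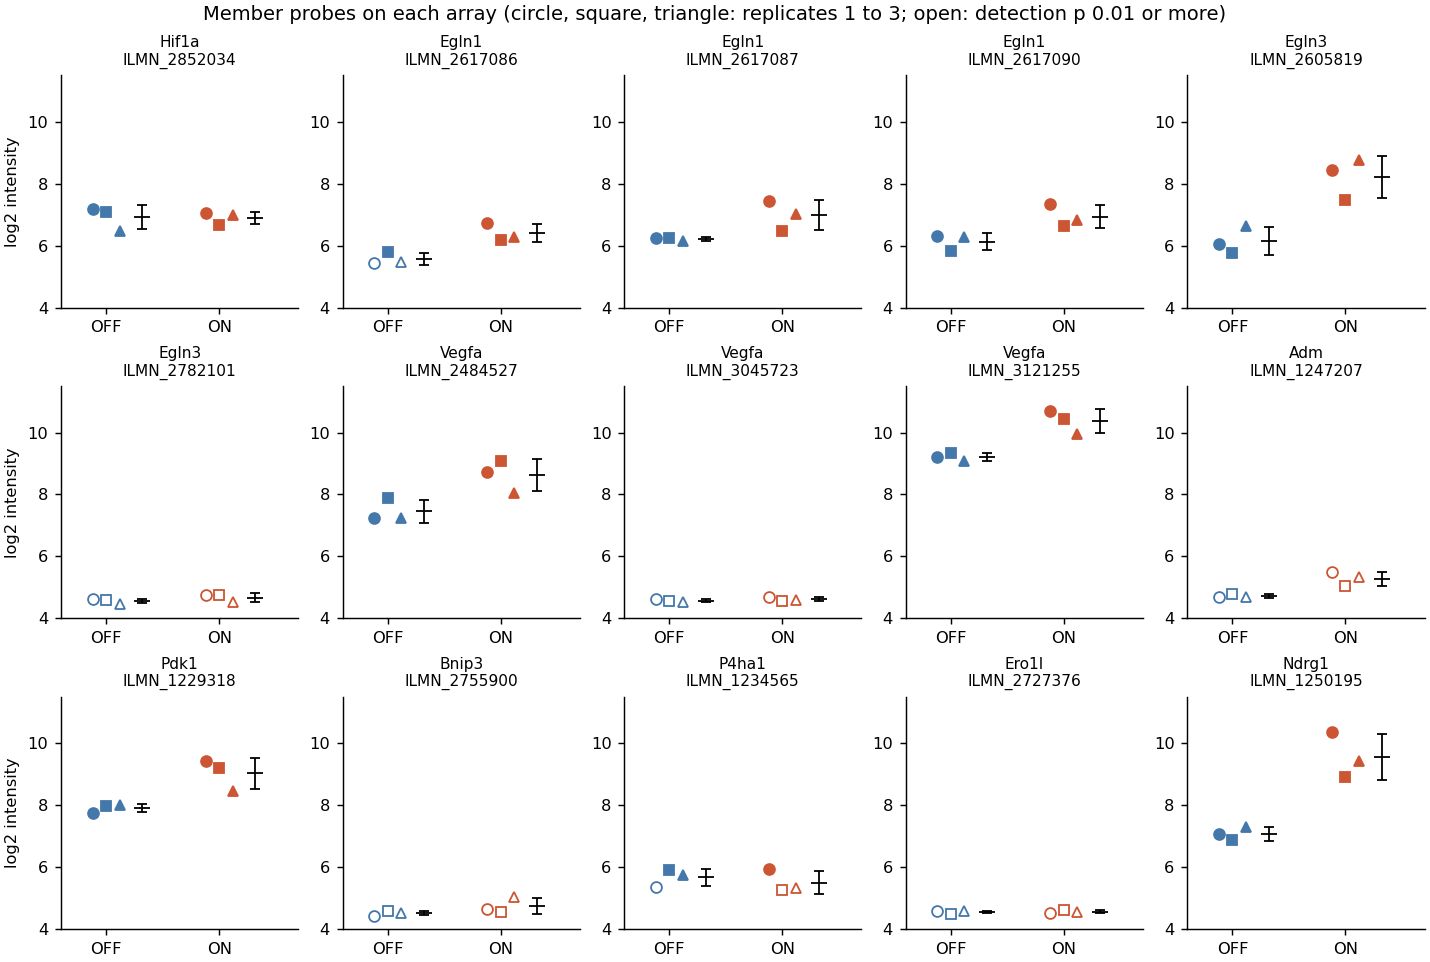
Log2 intensity of each of the 15 member probes on the 3 hSRY-OFF (blue) and 3 hSRY-ON (orange) arrays, with the group mean ± SD in black. Filled symbols were detected and open symbols were not; Ndrg1 and Egln3 ILMN_2605819 show the widest separation of the groups, Hif1a and P4ha1 overlap, and 5 probes stay near the background on every array.

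The arrays were alike in range. Between 10318 and 10762 probes (40.2 to 41.9%) were detected per array, with median intensities of 147 to 165. Pearson correlations across the tested probes were 0.987 to 0.992 within hSRY-OFF, 0.965 to 0.982 within hSRY-ON and 0.912 to 0.939 between groups. Since whole liver was measured, fewer cells of a type and less RNA per cell cannot be told apart. Hepatocyte markers were present on every array, and their summed background-corrected intensity (9 probes) was 139568 to 142312 in hSRY-OFF and 121644 to 126995 in hSRY-ON. Of the 9 probes 4, from 3 genes, were lower (44.4%, against 17.2% of all tested probes) and 0 higher (15.8% of all). Among biliary markers Krt19 and Sox9 were detected on 0 arrays, Spp1 on 1 array of each group (not tested), and Krt7 gave -0.08 with no call. Cldn4 was detected on the hSRY-ON arrays alone and was at least 7.93-fold brighter there. It passed the filter only through those arrays, so a difference was bound to appear. The sums over the 2 tested probes, Krt7 and Cldn4, were 61.8 to 63.8 in hSRY-OFF and 165.3 to 1622 in hSRY-ON. The part of these cell types in the results was not tested. Of 9 tested macrophage marker probes 1 was higher (11.1%, against 15.8% of all) and 4, from 3 genes, were lower (44.4%, against 17.2%). Of 9 neutrophil marker probes 0 passed in either direction. The neutrophil sums were 45121 to 52085 in hSRY-OFF and 29869 to 90365 in hSRY-ON. Chip position and scan date were not given in the sources used here.

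Hif1a, the oxygen-regulated alpha subunit itself, showed no detectable change in mRNA. Its probe ILMN_2852034 read 7.19, 7.08 and 6.48 on hSRY-OFF arrays 1 to 3 and 7.04, 6.67 and 6.99 on hSRY-ON arrays 1 to 3 (log2 intensity). The groups overlapped, and the lowest value came from an hSRY-OFF array. The difference was -0.02 ± 0.21 (SE), with a 95% interval of -0.51 to 0.48 (0.701-fold to 1.40-fold, adjusted p = 0.962). Epas1, which encodes the related HIF2 alpha subunit, had 2 tested probes with differences of -0.05 (adjusted p = 0.898) and 0.14 (adjusted p = 0.432). Arnt, the shared beta subunit, rose on its detected probe from 6.77 ± 0.20 to 7.74 ± 0.24 (SD, n = 3 each), a difference of 0.97 ± 0.17 (SE, adjusted p = 0.00547). Without background correction that difference was 0.53 (limma, adjusted p = 0.0072). The other Arnt probe was detected on 0 arrays.

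Egln1, the main prolyl hydroxylase that acts on Hif1a in normal oxygen, rose by about the same amount on each of its 3 probes. Probe ILMN_2617090 read 6.30, 5.82 and 6.27 in hSRY-OFF and 7.35, 6.63 and 6.82 in hSRY-ON. Its log2 difference was 0.81 ± 0.22 (SE, 1.75-fold, adjusted p = 0.0291), with no overlap. On ILMN_2617087 the values were 6.26, 6.26 and 6.14 against 7.44, 6.49 and 7.03, a difference of 0.77 ± 0.23 (adjusted p = 0.039). ILMN_2617086 passed detection on 1 array of hSRY-OFF pups and on 3 of hSRY-ON pups, with 5.44, 5.80 and 5.46 against 6.74, 6.18 and 6.28 and a difference of 0.83 ± 0.19 (adjusted p = 0.0136). ILMN_2617086 passed the filter only because of the hSRY-ON arrays, where it is high. A difference was therefore favoured in advance, and its call adds no separate support. On all 3 probes the highest value was that of hSRY-ON replicate 1 and the lowest hSRY-ON value that of replicate 2. All 3 probes lay close to background, and none of them kept its call in all alternatives: ILMN_2617087 lost it in 9 of 17, ILMN_2617090 in 6 of 17 and ILMN_2617086 in 2 of 16, with adjusted p up to 0.104, 0.0974 and 0.0862. Without background correction the differences of ILMN_2617090, ILMN_2617087 and ILMN_2617086 were 0.35, 0.35 and 0.29.

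Egln3, a prolyl hydroxylase that is itself a strongly inducible HIF target and so part of a feedback loop, rose 4.21-fold. Probe ILMN_2605819 read 6.06, 5.77 and 6.63 on the hSRY-OFF arrays and 8.46, 7.47 and 8.76 on the hSRY-ON arrays. Every hSRY-ON value was above every hSRY-OFF value. The means were 6.15 ± 0.44 and 8.23 ± 0.67 (SD, n = 3 each), a log2 difference of 2.07 ± 0.36 (SE, 95% interval of the fold 2.36 to 7.53, adjusted p = 0.00513), which ranked 95 among all 10734 differences. Before background correction the intensities were 201.1, 191.2 and 201.9 against 529.2, 295.3 and 503.8, and the log2 difference without that correction was 1.13 (adjusted p = 0.00712). The second Egln3 probe, ILMN_2782101, was detected on 0 arrays, with intensities of 141.9, 141.8 and 122.3 against 149.9, 142.8 and 123.9. Egln2, the family member that is not known as a hypoxia-induced gene, gave a difference of -0.06 ± 0.18 (adjusted p = 0.815).

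Other genes of oxygen sensing were read from a list of the machinery. Of 13 tested probes of it outside the member genes (10 of 16 listed genes), 3 rose (23.1%, against 15.8% of all tested probes) and 0 fell (17.2% of all), with a median difference of 0.05. Besides Arnt these were Cited2, a HIF target whose protein competes for the coactivator Ep300, at 1.15 ± 0.27 (SE, adjusted p = 0.0171), and Siah1a, a ubiquitin ligase, at 0.77 ± 0.16 (adjusted p = 0.0105). The probes of Vhl and of Hif1an, the asparaginyl hydroxylase that also restrains HIF, were detected on 0 arrays.

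Vegfa, the main growth factor for blood vessels, rose by close to the same amount on both of its detected probes. ILMN_3121255 read 9.20, 9.34 and 9.08 in hSRY-OFF and 10.71, 10.45 and 9.94 in hSRY-ON. The groups did not overlap, and the difference was 1.16 ± 0.20 (SE), or 2.23-fold (1.60 to 3.10, adjusted p = 0.00548). ILMN_2484527 read 7.24, 7.88 and 7.24 against 8.74, 9.07 and 8.05, a difference of 1.17 ± 0.29 (2.25-fold, adjusted p = 0.0202). The third probe, ILMN_3045723, was detected on 0 arrays (intensities 141.6, 139.3 and 127.1 against 146.8, 131.9 and 129.4). On both detected probes the hSRY-ON replicate 3 was the lowest of its group. Without background correction the differences of ILMN_3121255 and ILMN_2484527 were 1.01 and 0.79 (limma, adjusted p = 0.00406 and 0.0204). The call of ILMN_2484527 was lost without hSRY-OFF replicate 1, hSRY-OFF replicate 3 or hSRY-ON replicate 1, with adjusted p up to 0.0758.

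Adm encodes adrenomedullin, a vasodilating peptide and a common hypoxia-induced transcript. Its probe did not pass the detection filter: intensities were 146.6, 152.8 and 134.7 in hSRY-OFF, with detection p-values of 0.362, 0.232 and 0.412, and 178.8, 154.1 and 153.5 in hSRY-ON, with detection p-values of 0.0138, 0.119 and 0.0476. The hSRY-ON intensities were all above the hSRY-OFF ones, though the gap between the groups was small and every array read below its detection limit. In the fit with no filter on dim probes, which tested all 25697 probes, the difference was 0.55 ± 0.13 (SE, adjusted p = 0.0325). At this brightness a change cannot be sized.

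Receptors and partners of both ligands were read from a list of VEGF and adrenomedullin signalling genes. Of its 14 tested probes outside Vegfa and Adm, 6 rose (42.9%, against 15.8% of all tested probes) and 1 fell (7.14%, against 17.2%), with a median difference of 0.32; 2 of the 6 were Ramp3 probes detected on hSRY-ON arrays alone. Ramp3, which turns the calcitonin receptor-like receptor into an adrenomedullin receptor, was not well above background in hSRY-OFF. Its level in hSRY-ON exceeded that limit at least 4.35-fold on probe ILMN_3152486. Since it passed the filter only through the hSRY-ON arrays, a difference was bound to appear. Ramp1 rose by 1.04 (adjusted p = 0.00476), Ramp2 gave -0.04 (adjusted p = 0.857), and the receptor itself, Calcrl, was detected on 0 arrays. Angpt2, a vessel-destabilising ligand, rose from 6.44 ± 0.33 to 9.44 ± 0.21 (SD, n = 3 each), 8.0-fold (adjusted p = 0.000149), a log2 difference of 3.0 that was 1.95 without background correction. Flt1, a VEGF receptor and decoy, rose by 1.19 ± 0.14 (SE, adjusted p = 0.0013), and the other VEGF ligands split, with Vegfb at 0.59 ± 0.14 (adjusted p = 0.0187) and Figf (VEGF-D) at -0.50 ± 0.16 (adjusted p = 0.0474; -0.23 and 0.0756 without background correction). Markers of endothelial cells moved in part with these genes: 4 of 10 tested probes rose (40%, against 15.8% of all) and 1 fell (10%, against 17.2%). Lyve1 rose by 1.94, Oit3 by 1.0 and Pecam1 by 0.64 on both of its probes, and Clec4g fell by 0.58. Cdh5, Eng, Mmrn2, Stab2 and Tie1 gave 0.13, 0.54, 0.57, 0.24 and 0.08, each with no call. The summed intensity of these markers, 9728 to 11789 in hSRY-OFF, overlapped that of 9685 to 12573 in hSRY-ON. Without Clec4g, the brightest of them and the only marker that fell, the sums were 3915 to 4846 and 5390 to 7337 and did not overlap. Clec4g was left out after its value was seen, so the second pair of sums is only a description. The part of endothelial cells in these results was not tested.

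Pdk1, a kinase that switches off pyruvate dehydrogenase and so keeps pyruvate out of the mitochondria, rose 2.18-fold. ILMN_1229318 read 7.75, 7.96 and 8.02 in hSRY-OFF and 9.44, 9.20 and 8.47 in hSRY-ON. The hSRY-OFF values were tightly grouped while the hSRY-ON values spread by nearly 1 log2 unit, with replicate 3 nearest to the hSRY-OFF group. The difference was 1.12 ± 0.25 (SE, adjusted p = 0.0129), and the call was lost without hSRY-OFF replicate 1 (adjusted p = 0.0538). Without background correction the difference was 0.84 (limma, adjusted p = 0.0125).

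The Pdk relatives rose too. Pdk4, the fasting-induced isoform, read 9.02, 9.54 and 8.76 in hSRY-OFF and 11.69, 12.19 and 10.53 in hSRY-ON, a difference of 2.36 ± 0.41 (SE, adjusted p = 0.00545). Pdk2 rose by 1.0 ± 0.26 (adjusted p = 0.0227), and Pdk3 gave 0.45 ± 0.16 with no call (adjusted p = 0.0695). Subunits of the enzyme complex that these kinases inhibit also rose, Pdha1 by 0.80 ± 0.15 (adjusted p = 0.00632) and Pdhb by 0.65 ± 0.11 (adjusted p = 0.00531).

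Bnip3, which directs mitochondria to autophagy, could not be read. Its probe was detected on 0 arrays, at 128.1, 140.8 and 125.8 in hSRY-OFF and 144.4, 132.3 and 145.7 in hSRY-ON, and the groups overlapped. Its relative Bnip3l, which clears mitochondria from maturing red cells, was well measured at 10.79, 10.54 and 11.04 against 11.97, 11.86 and 11.60, a difference of 1.02 ± 0.17 (SE, 2.03-fold, adjusted p = 0.00443). Erythroid markers, from the blood-forming cells that a newborn liver still holds, rose on 2 of 8 tested probes (25%, against 15.8% of all) and fell on 0 (17.2% of all). Their summed intensity was 63550 to 82113 in hSRY-OFF and 80037 to 92374 in hSRY-ON. Hba-a1 was the brightest value on every array and so had no difference after normalization; without it the sums were 17328 to 35891 and 33815 to 46152, and Alas2 rose by 0.93. Their part in the Bnip3l difference was not tested. Fam162a, a HIF-induced mitochondrial protein, rose by 1.03 ± 0.19 (adjusted p = 0.0067). Over the list of mitochondrial adaptation genes outside Pdk1 and Bnip3, 7 of 14 tested probes rose (50%, against 15.8% of all tested probes) and 0 fell (17.2% of all), with a median difference of 0.54.

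P4ha1 and P4ha2, alternative catalytic subunits of the enzyme that hydroxylates proline in collagen, were read by 1 tested probe each: P4ha2 rose 10.3-fold and P4ha1 had no call. P4ha1 (ILMN_1234565) was near background, above its limit on 2 arrays of hSRY-OFF and 1 of hSRY-ON, with log2 intensities of 5.36, 5.92 and 5.73 against 5.94, 5.25 and 5.32. The groups overlapped, and the difference was -0.17 ± 0.23 (SE, 95% interval -0.70 to 0.37, adjusted p = 0.605). P4ha2 (ILMN_2789562), detected on 2 of 3 hSRY-OFF arrays, read 5.75, 6.07 and 6.30 against 9.90, 9.02 and 9.28. The hSRY-ON values of P4ha2 all lay far above the hSRY-OFF ones, 3.36 ± 0.25 on the log2 scale (adjusted p = 0.000208) and 2.07 without background correction. P4ha3 was detected on 0 arrays.

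Ero1l, the oxidase that recharges disulfide formation in the endoplasmic reticulum, was detected on 0 arrays (139.8, 135.6 and 129.1 against 136.6, 135.5 and 125.8). Its relative Ero1lb gave -0.42 ± 0.36 (SE, adjusted p = 0.400), with no call. Of 9 tested probes of the collagen hydroxylation and oxidative folding list outside the member genes, 3 rose and 3 fell (33.3% each, against 15.8% and 17.2% of all tested probes), with a median of 0.32. The 3 that rose were P4ha2, the lysyl oxidase Lox at 2.16 ± 0.29 (adjusted p = 0.00189) and the lysyl hydroxylase Plod2. Plod2 was dim in hSRY-OFF (not well above background on any array) and at least 10-fold brighter in hSRY-ON. It passed the filter only through the hSRY-ON arrays, where it is high, so a difference was bound to appear. The other lysyl hydroxylases, Plod1 and Plod3, gave 0.32 and 0.37 with no call (adjusted p = 0.198 and 0.0514). The 3 that fell were the peroxiredoxin Prdx4 at -1.13 ± 0.15 (adjusted p = 0.00181), the disulfide isomerase Pdia4 at -0.66 ± 0.18 (adjusted p = 0.0281) and P4hb, which is both protein disulfide isomerase and the beta subunit of the collagen enzyme, at -0.50 ± 0.11 (adjusted p = 0.0119). Stellate cell markers moved beside them, 5 of 12 tested probes higher (41.7%, against 15.8% of all) and 2 lower (16.7%, against 17.2%). Their sums were 13999.7 to 15800 in hSRY-OFF and 22905 to 24838 in hSRY-ON. The 5 that rose were 4 probes of Acta2 (smooth muscle actin, 2.46 to 3.13) and 1 of Des, while Lrat and Reln, markers of resting stellate cells, fell and Col1a1 gave -0.47 with no call; their part in the collagen enzymes' results was not tested.

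Ndrg1, a stress-induced gene of the N-myc downstream regulated family, had the largest difference of the 10 tested member probes. ILMN_1250195 read 7.06, 6.86 and 7.30 in hSRY-OFF and 10.37, 8.90 and 9.43 in hSRY-ON. All hSRY-ON values lay well above the hSRY-OFF range, with replicate 1 the highest. The means were 7.07 ± 0.22 and 9.57 ± 0.75 (SD, n = 3 each), a log2 difference of 2.49 ± 0.35 (SE), or 5.63-fold (3.20 to 9.88, adjusted p = 0.00224), rank 62 of all tested probes. Without background correction the log2 difference was 1.78 (adjusted p = 0.00334). A further probe that now maps to Ndrg1 but is listed under the older symbol Ndrl, and so is not among the 15, rose from 9.84 ± 0.15 to 12.02 ± 0.60, a difference of 2.18 ± 0.28 (SE, adjusted p = 0.00171). Of the relatives, Ndrg2 fell by 0.61 ± 0.16 on the log2 scale (adjusted p = 0.0232) and Ndrg3 gave 0.31 ± 0.18 with no call (adjusted p = 0.216).

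**Figure D3:**
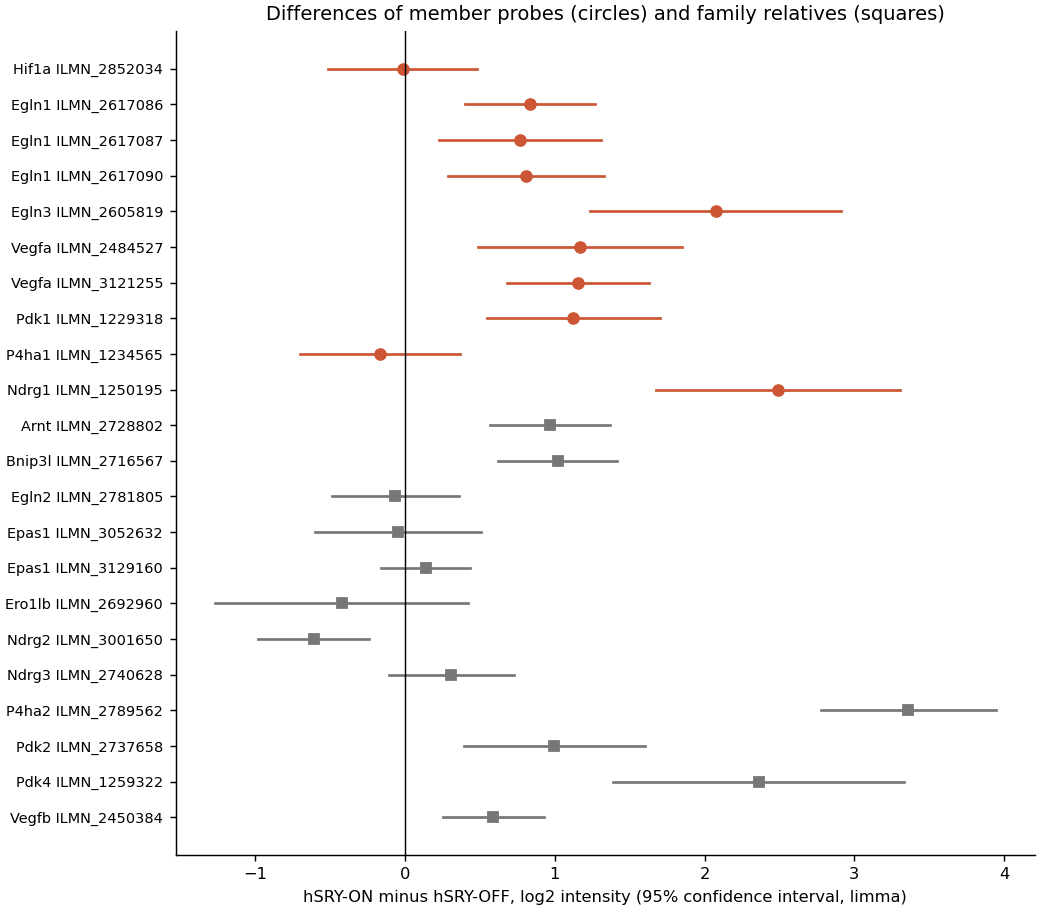
Differences between hSRY-ON and hSRY-OFF (log2 intensity) of the 10 tested member probes (circles) and of the tested probes of their family relatives (squares), with 95% confidence intervals from limma, n = 3 arrays per group. The intervals of 8 member probes lie above 0 and those of Hif1a and P4ha1 cross it; P4ha2 lies furthest to the right at 3.36 and Ndrg2 lies below 0 at -0.61.

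Whether a member moved by another amount than its relative was asked directly with the log2 ratio of the 2 genes within each array (each gene as the mean of its tested probes). With 3 arrays against 3, the smallest p that the two-sided exact permutation test can give is 0.1 (0.143 after adjustment over the 10 pairs that could be formed of 12 listed), so no pair could pass and the ratios are descriptions. The ratio of P4ha1 to P4ha2 was lower by 3.53 ± 0.14 (SE) in hSRY-ON, with no overlap, but P4ha1 was detected on only 3 of 6 arrays and the value was -2.12 without background correction, so its size is not fixed. Ndrg1 gained on Ndrg2 by 3.10 ± 0.56 and on Ndrg3 by 2.18 ± 0.49, also with no overlap (2.26 and 1.62 without background correction). Egln3 gained on Egln1 by 1.27 ± 0.40, Egln1 on Egln2 by 0.87 ± 0.33, and Pdk1 lost to Pdk4, at -1.24 ± 0.38; in each of these pairs the groups did not overlap, and without background correction the values were 0.80, 0.36 and -1.30. The ratio of Hif1a to Arnt was lower in hSRY-ON, at -0.99 ± 0.34, with no overlap either, and was -0.55 without background correction. The groups overlapped for Vegfa over Vegfb at 0.57 ± 0.27 (exact p = 0.2), Pdk1 over Pdk2 at 0.13 ± 0.15 (exact p = 0.5) and Hif1a over Epas1 at -0.06 ± 0.33 (exact p = 0.7).

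**Figure D4:**
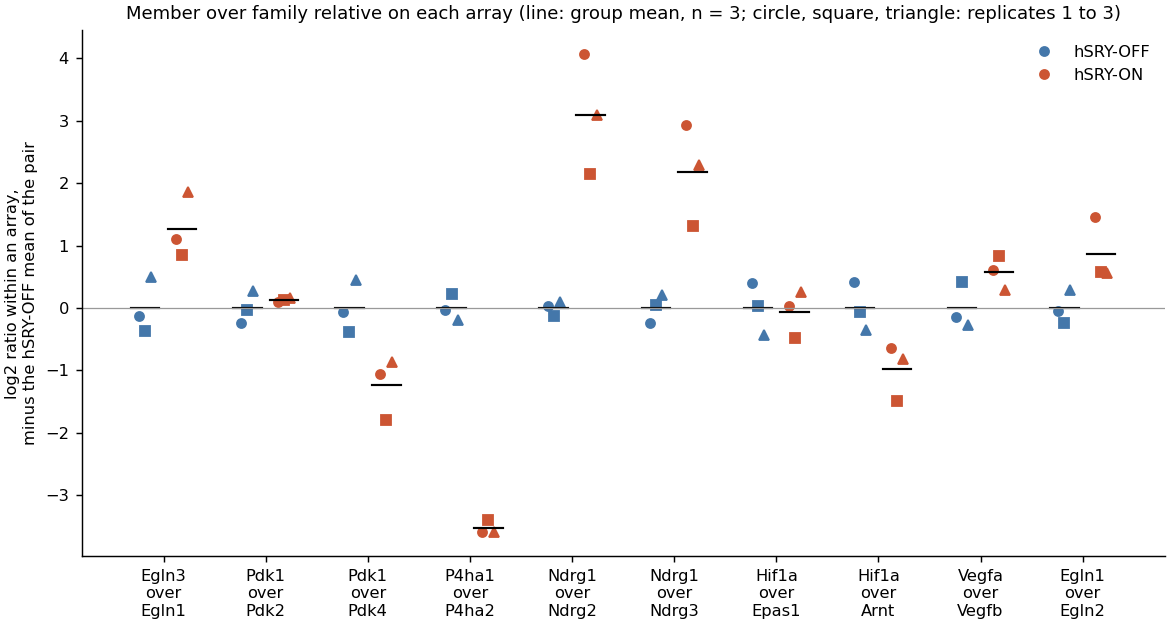
Log2 ratio of each member gene to a family relative or partner within each array, drawn relative to the hSRY-OFF mean of that pair, for 3 hSRY-OFF (blue) and 3 hSRY-ON (orange) arrays, with group means as lines. P4ha1 over P4ha2 falls by 3.53 and Ndrg1 over Ndrg2 gains 3.10, while Pdk1 over Pdk2 and Hif1a over Epas1 overlap between the groups.

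The wider lists of HIF pathway and target genes outside glycolysis gave changes in both directions. Of their 82 tested probes (66 genes) other than those of the member genes, 32 (25 genes) rose (39.0%, against 15.8% of all probes). A further 5 (5 genes) fell (6.1%, against 17.2%), and the median difference was 0.43. Detected on hSRY-ON arrays alone were 4 of the 82, of Plod2, Maff and Ramp3. The 5 that fell were Prdx4, Pdia4, P4hb, Figf and Ndrg2. The list of other HIF targets also holds Pfkfb3 and Pfkfb4, which regulate glycolysis, and the Ndrg1 relatives Ndrg2, Ndrg3 and Ndrg4. Of its 32 tested probes 13 rose (40.6%) and 1, of Ndrg2, fell (3.12%), with a median of 0.68. The 13 belonged to 7 of its 23 tested genes, while over all probes 1456 of 8225 tested genes had a probe that rose. Of that list the 3 genes with the smallest p were Hilpda, a lipid droplet protein, at 3.28 ± 0.17 (SE, 9.71-fold, adjusted p = 7.75e-05), Insig2 and Angptl4. Insig2, which restrains sterol synthesis, gave 2.49 ± 0.19 (adjusted p = 0.00025) and 1.64 without background correction. Angptl4, a lipoprotein lipase inhibitor, gave 1.76 ± 0.15 (adjusted p = 0.000334). Ddit4, an inhibitor of mTORC1 signalling, differed by 2.32 with no call (adjusted p = 0.0788); hSRY-ON replicate 3 read 8.67 beside 11.75 and 12.36 on the other hSRY-ON arrays. For the glycolytic targets, given only for scale, 14 of 18 tested probes rose (77.8%, against 15.8% of all) and 0 fell (17.2% of all). The median was 1.0, and the 14 belonged to 10 of the 12 tested genes. A Pfkp probe among them, ILMN_2673233, was detected on hSRY-ON arrays alone and passed the filter only through those arrays. The 3 genes with the smallest p, Aldoa, Pfkp (probe ILMN_1237695) and Slc2a1, differed by 2.13, 3.92 and 2.62.

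**Figure D5:**
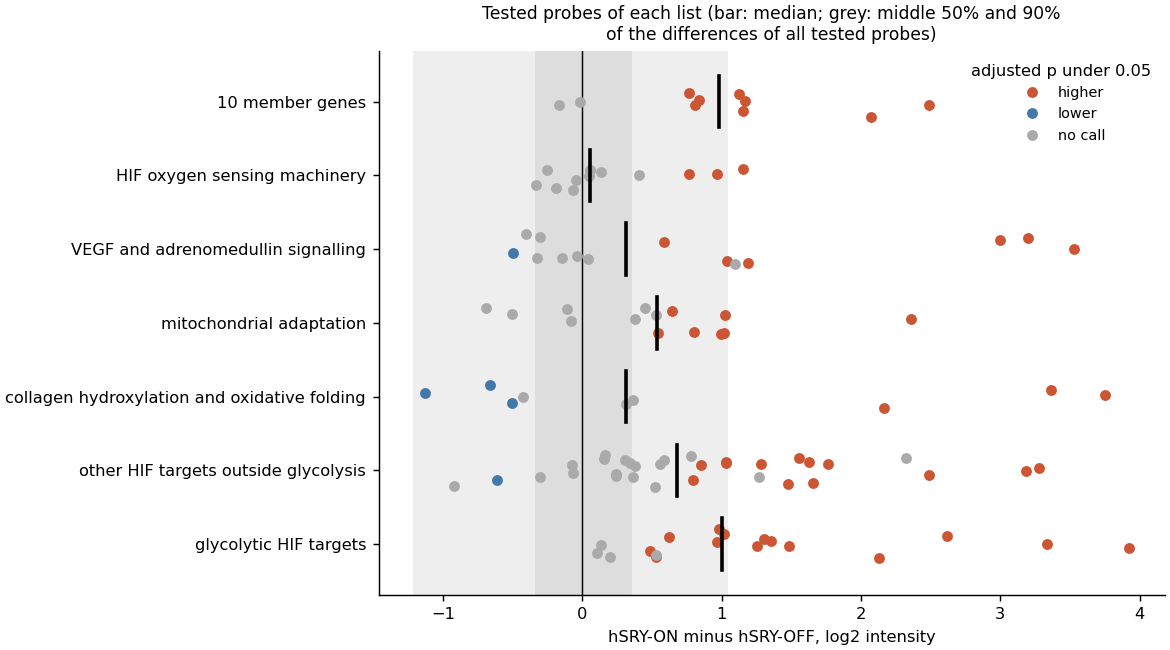
Difference between hSRY-ON and hSRY-OFF (log2 intensity) of every tested probe of the 10 genes and of each list without them; orange probes rose, blue probes fell and grey probes had no call at adjusted p under 0.05. Black bars are list medians, and the grey bands run from the 25th to the 75th (dark) and from the 5th to the 95th percentile (light) of the differences of all 10734 tested probes; the median of the 10 genes (0.98) is near that of the glycolytic targets (1.0), and the sensing machinery (0.05) lies at the centre of all probes.

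The rise was not even across the hSRY-ON pups. Among the 8 member probes called higher, replicate 1 gave the highest hSRY-ON value on 6 (75%), against 37.6% of all 1700 probes called higher, and replicate 2 gave the lowest on 5 and replicate 3 on 3. The 3 Egln1 probes are counted apart here although they read 1 gene. By gene, the lowest hSRY-ON value of Egln1, Egln3 and Ndrg1 came from replicate 2, and that of Vegfa and Pdk1 came from replicate 3. Each hSRY-ON value of the 8 probes was above every hSRY-OFF value after background correction and normalization, but in the deposited intensities the groups overlapped on 3 of the 8, Egln1 ILMN_2617087 and ILMN_2617086 and Vegfa ILMN_2484527.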

How the data were processed

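Biotin-labelled cRNA of 6 liver RNA samples, 3 hSRY-OFF and 3 hSRY-ON, had been hybridised to Illumina MouseRef-8 arrays. The deposited table holds, per the file headers, a non-normalized intensity and a detection p-value for each of 25697 probes on each array; the authors' scanner software and its version are not given in the sources used here. Background was corrected by normexp with the deposited detection p-values (limma 3.58.1, R 4.3.3), an offset of 16 was added, arrays were quantile normalized and values were taken as log2. This scale spreads dim probes, so their fold changes depend on the correction. Probes with a detection p-value under 0.01 on at least 3 of 6 arrays, whichever their group, were tested by lmFit and eBayes, with Benjamini-Hochberg adjustment over all 10734 and a threshold of 0.05. The study names a package for counts without a model; limma, which the submitters' processing notes list, was used because intensities are not counts. "At least" folds set hSRY-OFF arrays to the lowest signal of any detected probe, and the number of arrays limits precision.

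Groups and replicate numbers came from the sample titles. The labels do not say whether same-numbered pups were related: deviations of same-numbered arrays from their group means correlated by 0.025, 0.096 and 0.052, so the numbers were not used as pairs. The named genes were all member probes, all listed family relatives and, per pathway list, the 3 called genes of smallest p; Ndrl, Ddit4, Pdk3, Ramp1, Ramp2, Calcrl, Vhl, Hif1an, Figf, Pdia4, P4hb Plod1, Plod3, Maff and the markers, and the marker sums without Clec4g or Hba-a1, were added after their values were seen. The members and lists were chosen with earlier results of these data known. Alternatives covered background, offset, normalization, filter, variance model, threshold, block, probes per gene and each array left out. The procedure was tested on simulated data in which far fewer probes changed than were called here, so that test does not cover change this wide.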

Additional observations from a re-analysis of the deposited data

How the results depend on the processing

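Without background correction and with trimmed-mean scaling 5 member probes were higher (12.1% of all tested probes were higher in that fit). At a threshold of 0.01 it was 3 (6.47% of all), and with 1 probe per gene 5 of 7 (16.8% of all). With each array left out the count ranged from 3 to 8 (8.33 to 18.1% of all), and the member count lower was 0 throughout. The replicate block gave 8 higher (14.6% of all) and 0 lower and changed no call of a member probe. For the pathway lists 32 probes were higher, and 26 to 40 with an array left out (15.8% and 8.33 to 18.1% of all). The count lower was 5, which became 9 with array weights, 1 at the threshold of 0.01 and 1 to 9 with an array left out. Over all 10734 probes the lower counts were 1851, 2415, 974 and 1142 to 2122 in the same order. Directions reversed only for genes with no call: P4ha1 gave 0.13 with array weights, Hif1a ranged from -0.24 to 0.12 with an array left out, 0.12, 0.07 and 0.10 without hSRY-OFF replicate 1, hSRY-OFF replicate 2 and hSRY-ON replicate 2, and the ratio of Hif1a to Epas1 ranged from -0.28 to 0.15, with 0.14 without hSRY-OFF replicate 1. The cause was not tested. The median of all differences moved by less than 0.1 under each scaling. Ndrg1, Egln3 and Vegfa ILMN_3121255 kept their calls in 17 of 17 alternatives, with a highest adjusted p of 0.0130, 0.0251 and 0.0258. Without a filter on dim probes 1 further member, Adm, passed, but Egln1 ILMN_2617090 and ILMN_2617087 lost their calls (limma, adjusted p = 0.0576 and 0.0769). In that fit 7 of 15 member probes were higher (6.07% of all). Probes below detection set no limit on their genes' expression.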
